A study of Drosophila melanogaster with 2 samples.

Results

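Embryonic patterning transcription factor genes were examined for occupancy by Taf1 in Drosophila melanogaster embryos. They were 53 named genes, of 13968 protein-coding genes on the chromosome arms, and they fell into 8 Hox, 8 gap, 3 terminal, 6 head gap, 7 pair-rule, 8 segment and 12 dorsoventral genes and the zygotic activator zld. All 53 were found in the annotation, 52 by symbol and h (hairy) by its current symbol hry. The members were chosen by name and not by any measured value, though with earlier results of these data known.

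These genes set up the body plan. Maternal gradients switch on gap and terminal genes in broad domains of the early embryo, their products position the stripes of pair-rule genes, pair-rule factors set the segment genes, and Hox genes give each segment its identity. Dorsoventral factors divide the same embryo into mesoderm, neural and dorsal tissue, and the product of zld opens many early enhancers. Most members are active in part of the embryo for part of embryogenesis, and several are known for promoters at which RNA polymerase II pauses and for distant enhancers. Taf1 belongs to TFIID, the complex that recognises core promoters when transcription starts, and is its largest subunit.

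Chromatin immunoprecipitation with sequencing was done on whole embryos aged 0 to 24 h of the strain Taf1-GFP, which carries an insertion expressing a Taf1-eGFP fusion, and the fusion was pulled down through its GFP. Both biological replicates (1 group, n = 2) carry the fusion, and a control experiment was not analysed here. Each library is a mixture of all embryonic tissues and ages, so a site bound in few cells and a site bound weakly in many cannot be told apart. The authors' thresholded peak lists held 1283 peaks for replicate 1, 1994 for replicate 2 and 2665 for the pooled reads, with a conservative pooled list of 2181. The relaxed ranked lists were far longer, with 33551, 95427 and 60624 peaks for replicate 1, replicate 2 and the pooled reads. No read counts were given, so the depth is unknown. Signal is the authors' value for each peak. Its scale is not stated, so values were ranked only within a list and set side by side only for 1 gene or site. Replicates are biological per the labels, and no difference between groups of samples was tested. Each share of the members has an exact 95% Clopper-Pearson interval, with genes as the units, for counting error only.

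Few of these genes had a strong Taf1 peak at a start site. A promoter summit, meaning a peak summit within 500 bp of any annotated transcription start site (TSS), was found in the pooled thresholded list at 2 of the 53 genes (3.77%, interval 0.46 to 13), against 13.2% of all protein-coding genes. The 2 genes were cnc, which encodes a basic leucine zipper factor of the mandibular segment that also acts in the response to oxidative stress, and h, a pair-rule gene for a basic helix-loop-helix repressor. The same 2 genes were called in the conservative list (interval 0.46 to 13), against 11.4% of all genes. In the thresholded list of replicate 1 only cnc was called (interval 0.0478 to 10.1), against 7.23% of all genes. In that of replicate 2 the genes were cnc and the Hox gene Abd-B (interval 0.46 to 13), against 10.6%. In the conservative list and in both replicate lists the share of all genes lay inside the members' interval. No set test was run on these counts, which describe this list of genes.

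The cnc gene (FBgn0262975, chr3R:23185580-23226711, minus strand, dm6) has 10 annotated TSSs. Its promoter peak spanned chr3R:23189938-23190253 in an intron of the longer transcripts, with the summit 323 bp downstream of the nearest TSS. The signal was 102.1 in the pooled list, where the peak ranked 1085 by signal, 45.5 in replicate 1 and 55.5 in replicate 2. Both replicates thus held this peak above the authors' threshold. The h gene (FBgn0001168, chr3L:8675759-8679253, plus strand) had its peak at chr3L:8675648-8675963 with the summit in the 5' UTR, 47 bp downstream of the TSS. Its signal was 69.1 in the pooled list, 43.6 in replicate 1 and 27.0 in replicate 2. The h peak was in neither replicate's thresholded list, and only in the ranked ones. Both promoters are printed because they are the start sites of this list that reached the pooled threshold. Each run covers 250 bases before and 30 after the TSS, on the strand of the gene, from the RefSeq release 6 assembly. Capitals mark matches on either strand to any of the 9 motifs searched. These were the TATA box motif TATAAA, the initiator motif TCAGTT with its variant TCAGTC, the DRE core motif ATCGAT, the E-box motif CAGCTG, the GAGA factor motif GAGAG, the Zelda motif CAGGTAG, the pause button motif CGGACG and the core promoter motif CANCNCTA.

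cnc, chr3R:23190390-23190669, minus strand: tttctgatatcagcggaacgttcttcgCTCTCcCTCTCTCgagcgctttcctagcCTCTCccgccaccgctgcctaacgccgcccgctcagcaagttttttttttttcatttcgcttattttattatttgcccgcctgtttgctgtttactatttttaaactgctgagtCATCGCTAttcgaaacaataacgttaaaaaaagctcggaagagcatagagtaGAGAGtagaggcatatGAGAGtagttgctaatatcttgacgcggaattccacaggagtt

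h, chr3L:8675509-8675788, plus strand: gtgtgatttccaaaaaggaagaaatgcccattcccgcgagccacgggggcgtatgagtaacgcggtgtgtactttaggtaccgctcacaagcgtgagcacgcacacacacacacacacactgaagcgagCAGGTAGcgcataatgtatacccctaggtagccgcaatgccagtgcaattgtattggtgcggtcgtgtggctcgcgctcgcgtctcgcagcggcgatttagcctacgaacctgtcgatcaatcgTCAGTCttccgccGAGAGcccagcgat

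The cnc run holds 6 matches to GAGAG, 2 of which overlap, and 1 to CANCNCTA. It lies upstream of the called cnc peak and does not overlap it, so these matches are not sequence under that peak. The h run holds 1 match to CAGGTAG, then 1 match to TCAGTC and 1 match to GAGAG. GAGA factor is known to bind repeats of the latter, and the product of zld, Zelda, is known to bind CAGGTAG in early embryos.

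The setting of these genes in the genome differed from that of other genes, and the promoter counts are given beside it. A head-to-head neighbour, a protein-coding TSS on the other strand within 1 kb upstream, was present at 1 member, twi, and at 36.2% of protein-coding genes. Genes with such a neighbour had a promoter summit in 24.3% of cases and genes without it in 6.97%, and among the members without it the count was 2 of 52 (3.85%). The 6.97% lies inside the interval of 0.46 to 13 for all 53 members. Members had a median of 1 other protein-coding gene with a TSS in the gene or within 10 kb, against 5 for all genes. Among genes with at most 1 such neighbour, 70 of 1643 (4.26%) had a promoter summit, and 1 of 32 members (3.12%) did. Among genes with 2 or more, 14.4% had one, and 1 of 21 members (4.76%) did. Members with a single TSS and no head-to-head neighbour gave 0 of 26 (interval 0 to 13.2), where 4.17% of all such genes were called. With 2 to 4 TSSs and no head-to-head neighbour 1 of 24 members was called, against 15% of all such genes. With 5 or more it was cnc and not Abd-B, 1 of 2, against 33.9%.

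Most members were far from any strong summit. The median distance from a TSS of a member to the nearest pooled thresholded summit was 29180 bp, with a range from 47 bp at h to 110377 bp at gt, a gap gene for a leucine zipper repressor. The median over 13945 protein-coding genes on arms with a summit was 12192 bp, and over those without a head-to-head neighbour it was 16682 bp. By role the lowest median was that of head gap genes, 6624 bp, and the highest that of gap genes, 62576 bp. The nearest summit to any gap gene lay 17776 bp away, at hb.

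**Figure D1:**
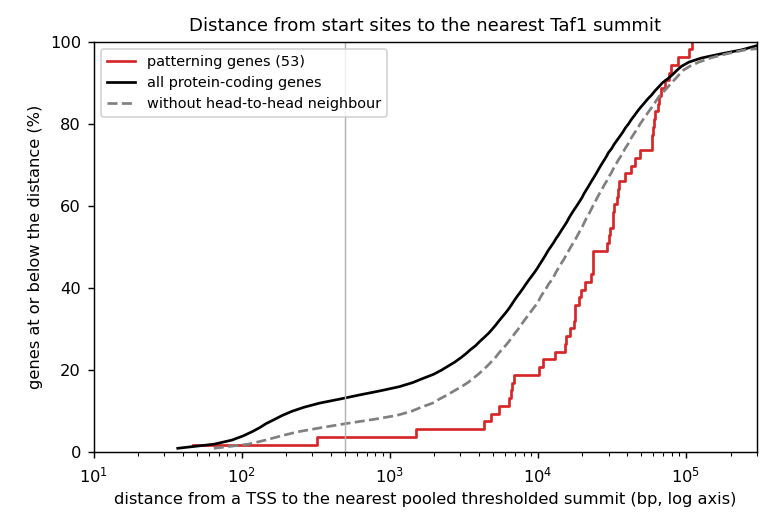
Share of genes (y axis, %) whose nearest pooled thresholded summit lies at or below a given distance from a TSS (x axis, bp, log scale), for the 53 patterning genes, all protein-coding genes and those without a head-to-head neighbour; the grey line marks 500 bp. At 500 bp the patterning genes stand at 3.77%, all genes at 13.2% and genes without a head-to-head neighbour at 6.97%.

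Counted per gene, bodies were occupied about as often as those of other genes in the thresholded lists and more often in the ranked lists. A summit between the annotated ends of the gene was found at 5 members (9.43%, interval 3.13 to 20.7), against 8.08% of all protein-coding genes. They were cnc with 3 summits, ush with 2, and h, Ubx and Abd-B with 1 each. Member genes are long, with a median of 6843 bp against 2165 bp for all genes. Per length of gene body, members held 8 summits in 0.893 Mb, 8.96 per Mb, and all protein-coding genes 16.9 per Mb. In the conservative list 5 members had a body summit, with Antp in place of Ubx (all genes 6.96%), in the thresholded list of replicate 1 it was 2 (4.50%) and in that of replicate 2 it was 4 (6.55%). In the pooled ranked list a body summit was found at 46 members (86.8%, interval 74.7 to 94.5), against 65.7% of all genes. The ranked list of replicate 1 gave 41 (77.4%, interval 63.8 to 87.7), against 55.2%. That of replicate 2 gave 51 (96.2%, interval 87 to 99.5), against 74.4%. These counts were not matched for gene length. In the pooled thresholded list, with summits within 500 bp of any protein-coding TSS left out, the values per length were 6.72 and 10 per Mb. Both values depended on ush: with the peaks added back that pass the same IDR but are absent from the thresholded list, 6 of them in the ush body and nearest to cbt, they were 15.7 per Mb for members and 17.5 for all genes. With promoter windows left out they were then 12.3 and 10.5 per Mb, so that the order turned.

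Widening the search to 10 kb on either side of the gene gave a summit at 16 members (30.2%, interval 18.3 to 44.3), against 49.0% of all protein-coding genes. The conservative list gave 15 (all genes 43.8%), replicate 1 gave 7 (30.9%) and replicate 2 gave 12 (41.5%). In the ranked lists the measure was saturated, with all 53 members and 98.6%, 98.0% and 97.4% of all genes in the pooled, replicate 1 and replicate 2 lists. Among genes with at most 1 neighbour within 10 kb the order was the other way, with 8 of 32 members (25%) and 19.6% of all, while among those with 2 or more it was 8 of 21 members (38.1%) and 53% of all. The 16 members had 21 different summits near them. For 12 of these the nearest protein-coding TSS was that of a member, and for the other 9 it belonged to another gene. Counting a summit only for its nearest protein-coding TSS left 8 of the 53 members, slightly above the 14.2% of all genes. Of the 9, 4 lay within 500 bp of the other gene's TSS. The summit past the end of tup lay 111 bp from the TSS of CG10602 (signal 161.1). The summit past the end of cad was 216 bp from that of Pomp, a proteasome assembly factor (84.5). The summit past the end of Ubx was 191 bp from that of modSP, a serine protease gene of the Toll pathway (77.9), and that near zen was 178 bp from that of bcd, the maternal anterior determinant (55.2). Near btd the strongest of the 21, with a signal of 184.1, lay 724 bp from nej, which encodes the CBP acetyltransferase, and 399 bp from lncRNA:CR42657. The summit near lab was in coding sequence of Taf1 itself, 4196 bp from the TSS of CG1307 (61.3), and that near sob was 2042 bp from CG43815 (76.8). The summit past the end of abd-A lay 1675 bp from lncRNA:CR45750 and 10614 bp from its nearest protein-coding gene, Glut3 (89.4). The summit past the end of cnc was in introns of Irk1 and CG46310 (79.6).

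Summits that had a patterning gene as their nearest protein-coding gene lay mostly away from its start site. Over all distances there were 14 at 9 members (all genes 14.5%), and 2 members had one within 500 bp (all genes 9.66%). The 9 genes were cnc and h, and also ush, ems, slp2, mid, Doc2, Ubx and Abd-B. Of the 14, 12 were over 500 bp from the TSS, while 47.1% of all 2658 summits on the arms were that far from a protein-coding TSS. Such a distal summit was found at 9 of 53 members (17.0%, interval 8.07 to 29.8), against 6.24% of all protein-coding genes, 7.27% of those without a head-to-head neighbour and 10.7% of those with at most 1 neighbour within 10 kb. In that last class 4 of 32 members (12.5%) had it. Among genes with 2 or more neighbours it was 5 of 21 members (23.8%) and 5.65% of all. None of these shares was matched for gene length, and members are longer than other genes by median. At 3 of the 14 summits, in ush, in Ubx and near mid, the TSS of a noncoding gene was as near or nearer. The median signal of the 14 was 68.3 and that of all summits 90.7. Of the 14, 5 were above the median of all summits. The highest was 132.1 and ranked 718.

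The highest of the 14 lay between slp1 and slp2, neighbouring forkhead genes with roles in head and segment patterning. It spanned chr2L:3832368-3832683, 4314 bp upstream of slp2 and 6851 bp downstream of the slp1 TSS. Its signal was 132.1 in the pooled list, 43.5 in replicate 1 and 89.6 in replicate 2, and only replicate 2 held it above the threshold. At chr3L:9025768-9026083, 6680 bp upstream of Doc2, a T-box gene of the dorsal ectoderm and amnioserosa, a summit had a pooled signal of 131.5, with 74.8 in replicate 1 and 61.6 in replicate 2. Both replicates held it above the threshold. The ush gene, which encodes a zinc finger cofactor of the GATA factor of pnr, had intronic summits of 92.1 (55.7 in replicate 1 and 36.0 in replicate 2) and 65.1 (35.3 and 32.0), and only the stronger was in both thresholded replicate lists. Sequence at the 3 strongest of these summits that lie over 500 bp from a TSS and within 10 kb of a member is printed to show the distal Taf1 peaks of patterning loci. Each run covers 100 bases on either side of the summit, on the plus strand, marked as above.

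slp1 and slp2, chr2L:3832426-3832626, plus strand: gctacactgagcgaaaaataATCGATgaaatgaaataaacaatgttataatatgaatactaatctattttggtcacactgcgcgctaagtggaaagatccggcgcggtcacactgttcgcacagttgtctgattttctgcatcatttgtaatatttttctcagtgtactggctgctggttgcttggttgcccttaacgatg

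Doc2, chr3L:9025826-9026026, plus strand: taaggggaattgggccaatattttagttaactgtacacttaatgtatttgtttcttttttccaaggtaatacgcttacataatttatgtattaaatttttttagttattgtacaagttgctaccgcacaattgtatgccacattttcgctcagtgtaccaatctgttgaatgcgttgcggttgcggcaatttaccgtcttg

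ush, chr2L:516123-516323, plus strand: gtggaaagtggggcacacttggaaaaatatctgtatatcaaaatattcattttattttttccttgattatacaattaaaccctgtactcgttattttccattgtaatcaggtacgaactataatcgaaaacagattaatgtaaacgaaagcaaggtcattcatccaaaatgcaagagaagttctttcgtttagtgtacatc

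The run between slp1 and slp2 holds 1 match, to ATCGAT. The runs at Doc2 and ush hold none of the 9 motifs. Over the 14 summits GAGAG was found in 6 windows of 201 bp, against 22.1% of windows at all summits, and CAGGTAG in none, against 0.79%.

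The ems gene, a homeodomain gene of the head, had 2 summits downstream, 13097 bp and 13981 bp from its TSS. The nearer summit reached 96.9 (52.3 in replicate 1 and 44.1 in replicate 2) and was in both replicates' thresholded lists, and the farther had 67.4 (27.2 and 36.8). The summit nearest to mid, a T-box segment gene, lay 15211 bp from its TSS (69.9, with 39.9 and 27.8). Further cnc summits had signals of 61.1 (28.7 and 35.4), 3459 bp from a TSS, and 58.2 (37.8 and 21.1), in the 5' UTR, 1075 bp from a TSS. A second h summit lay 3125 bp upstream (54.7, with 33.4 and 16.9). Every one of the 14 summits overlapped a peak in both ranked replicate lists, but 4 did so in the thresholded list of replicate 1 and 7 in that of replicate 2.

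**Figure D2:**
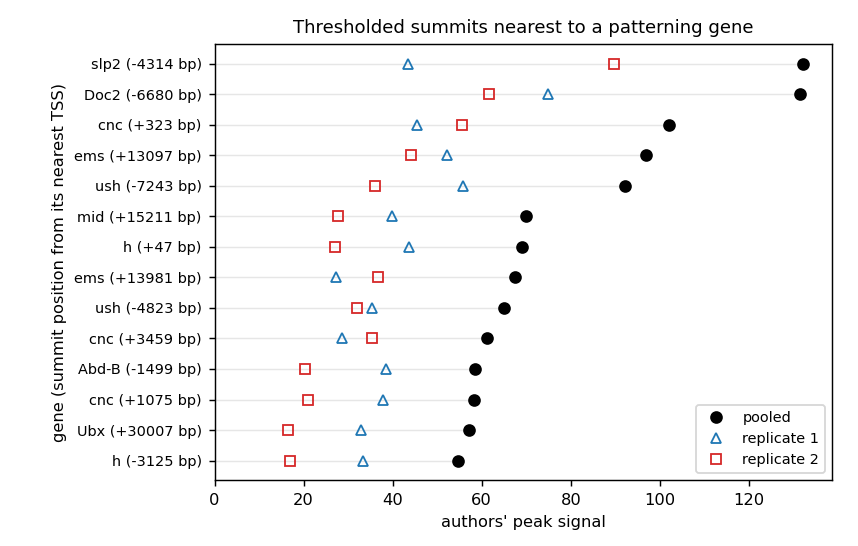
Authors' peak signal (x axis) of the 14 pooled thresholded summits whose nearest protein-coding TSS is that of a patterning gene, with the position of the summit from that TSS in bp (minus, upstream). Black circles are the pooled list and open symbols the overlapping peaks of the ranked lists of replicates 1 and 2; pooled values run from 54.7 at h to 132.1 between slp1 and slp2.

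No Hox gene had a promoter summit in the pooled thresholded list (0 of 8, interval 0 to 36.9, all genes 13.2%). The ranked lists, which hold weak and irreproducible peaks, showed a promoter summit at 4 of 8 in the pooled reads (all genes 56.6%), 4 in replicate 1 (49.7%) and 6 in replicate 2 (64.2%). The gene with the highest value was Abd-B, which specifies the posterior abdomen and has 6 annotated TSSs. Its promoter summit reached 37.1 in replicate 2, 76 bp downstream of a TSS, where it passed the threshold, and 42.5 in the pooled ranked list, 57 bp downstream. In replicate 1 the strongest promoter summit of Abd-B had 15.4 and lay at another TSS. The Abd-B call therefore rests on replicate 2. Its thresholded pooled summit was intronic, 1499 bp upstream of a TSS (58.4, with 38.6 in replicate 1 and 20.3 in replicate 2).

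For lab, which acts in the head, the strongest promoter summit had 28.0 in replicate 1 and 20.1 in replicate 2, at different TSSs, and the pooled list held none. For Antp, the gene of thoracic identity, the values were 22.8 in the pooled list, 21.1 in replicate 1 and 9.0 in replicate 2, each at another of its 3 TSSs. The genes Dfd and Scr of the posterior head and anterior thorax had 22.8 each in the pooled list, 15.5 and 13.5 in replicate 2 and no promoter summit in replicate 1. The pb gene, of the mouthparts, had one in replicate 2 alone (14.1). Ubx, of the posterior thorax and anterior abdomen, had 15.1 in replicate 1, 90 bp downstream of its TSS, and none in the other 2 lists. For abd-A no ranked list held one. Ubx also had the thresholded intronic summit, 30007 bp from the TSS (57.1, with 33.0 in replicate 1 and 16.6 in replicate 2). That summit was in neither replicate's thresholded list and not in the conservative list. Antp had no body summit in the pooled thresholded list, but 2 in the conservative list and 1 in the thresholded list of replicate 2. Most Hox genes were thus seen at their promoters in some lists and not in others. The promoters of Abd-B and Ubx are printed as the Hox start site with the strongest signal and as that of a Hox gene with a single annotated TSS and little signal.

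Abd-B, chr3R:16934213-16934492, minus strand: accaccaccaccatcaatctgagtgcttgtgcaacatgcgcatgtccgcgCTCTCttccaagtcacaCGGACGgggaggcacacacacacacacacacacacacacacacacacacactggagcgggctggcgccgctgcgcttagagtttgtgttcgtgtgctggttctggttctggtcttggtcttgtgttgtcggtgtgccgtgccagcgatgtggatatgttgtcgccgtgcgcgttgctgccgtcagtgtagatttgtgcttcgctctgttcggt

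Ubx, chr3R:16734397-16734676, minus strand: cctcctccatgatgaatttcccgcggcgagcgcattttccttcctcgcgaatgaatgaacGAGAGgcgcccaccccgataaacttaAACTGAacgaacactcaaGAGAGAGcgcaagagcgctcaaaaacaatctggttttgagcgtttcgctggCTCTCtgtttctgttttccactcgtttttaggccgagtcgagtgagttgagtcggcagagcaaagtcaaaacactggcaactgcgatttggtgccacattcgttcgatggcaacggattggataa

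The Abd-B run holds 1 match to GAGAG and 1 to CGGACG. The Ubx run holds 4 matches to GAGAG, 2 of which overlap, and 1 to TCAGTT.

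When the ranked lists were read in full, patterning promoters were no longer rare. The pooled ranked list had a promoter summit at 34 of 53 (64.2%, interval 49.8 to 76.9), against 56.6% of all protein-coding genes. In replicate 1 it was 23 (43.4%, interval 29.8 to 57.7) against 49.7%, and in replicate 2 it was 44 (83%, interval 70.2 to 91.9) against 64.2%. Without a head-to-head neighbour genes stood at 49.9%, 41.3% and 61.4% in these 3 lists, so that the order turned in replicate 1. Any TSS counted, and members had a median of 2 annotated TSSs against 1 for all genes. The members' promoter summits were weak. The members' strongest promoter summits in the pooled list ran from 13.8 to 102.1 with a median of 23.9, while the median over the 7908 genes with one was 33.0. The members' median percentile among those genes was 26.7, and 9 of the 34 stood at or above the median gene. It was 30.4 in replicate 1 and 44.4 in replicate 2. A −log10 of the global irreproducible discovery rate (IDR) of 1 or more was reached by 3 of the 34, cnc, h and ush, or 8.82%, against 31.4% of all genes with a promoter summit and 20.3% of those without a head-to-head neighbour.

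After cnc and h, the highest pooled signals at a promoter were those of ush (45.8, with 38.9 in replicate 1 and 16.3 in replicate 2), Abd-B (42.5), and en (41.4, with 17.7 and 22.6), the homeodomain gene of posterior compartments. Next came pnr (38.1, with 18.7 and 17.3), a GATA factor of the dorsal ectoderm, sim (37.9, with 20.4 in replicate 2 and, at another TSS, 14.4 in replicate 1), the master gene of the ventral midline, and gsb-n (36.7, with 17.4 in replicate 2 only), a paired-type gene of segments. The 10 highest ended with cad (34.2, with 18.6 in replicate 1 and, at another TSS, 13.5 in replicate 2), a homeodomain gene of the posterior, and ems (30, with 19.4 and 9.7). None of the 8 trunk gap genes was among these. The gap genes hb, Kr, kni, nub and pdm2 had pooled values from 19.7 to 29.2, and knrl, gt and D had none.

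Among pair-rule genes h stood apart from the rest, with 69.1 in the pooled list where eve, ftz, run, odd and prd had 13.8 to 20.1 and opa had none. In replicate 1 h was the only pair-rule gene of 7 with a promoter summit (43.6), while in replicate 2 all 7 had one, from 8.5 at run to 28.6 at h, the latter at an offset of -467 bp from the TSS and apart from the 27.0 peak. All genes stood at 56.6% in the pooled list, 49.7% in replicate 1 and 64.2% in replicate 2, beside which these role counts are read. Of the 8 segment genes 6 had one in the pooled list, 3 in replicate 1 and 7 in replicate 2. Of the 12 dorsoventral genes, 7 had one in the pooled list, 5 in replicate 1 and 12 in replicate 2. The mesoderm genes twi and sna were seen only in replicate 2, at 15.1 and 18.2. The twi summit lay 478 bp downstream of the most upstream of its 3 annotated TSSs, near the edge of the window. The zygotic activator zld had 6.4 in replicate 2 and none elsewhere. Only abd-A, slp2 and D, a Sox gene, had no promoter summit in any of these 3 lists.

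**Figure D3:**
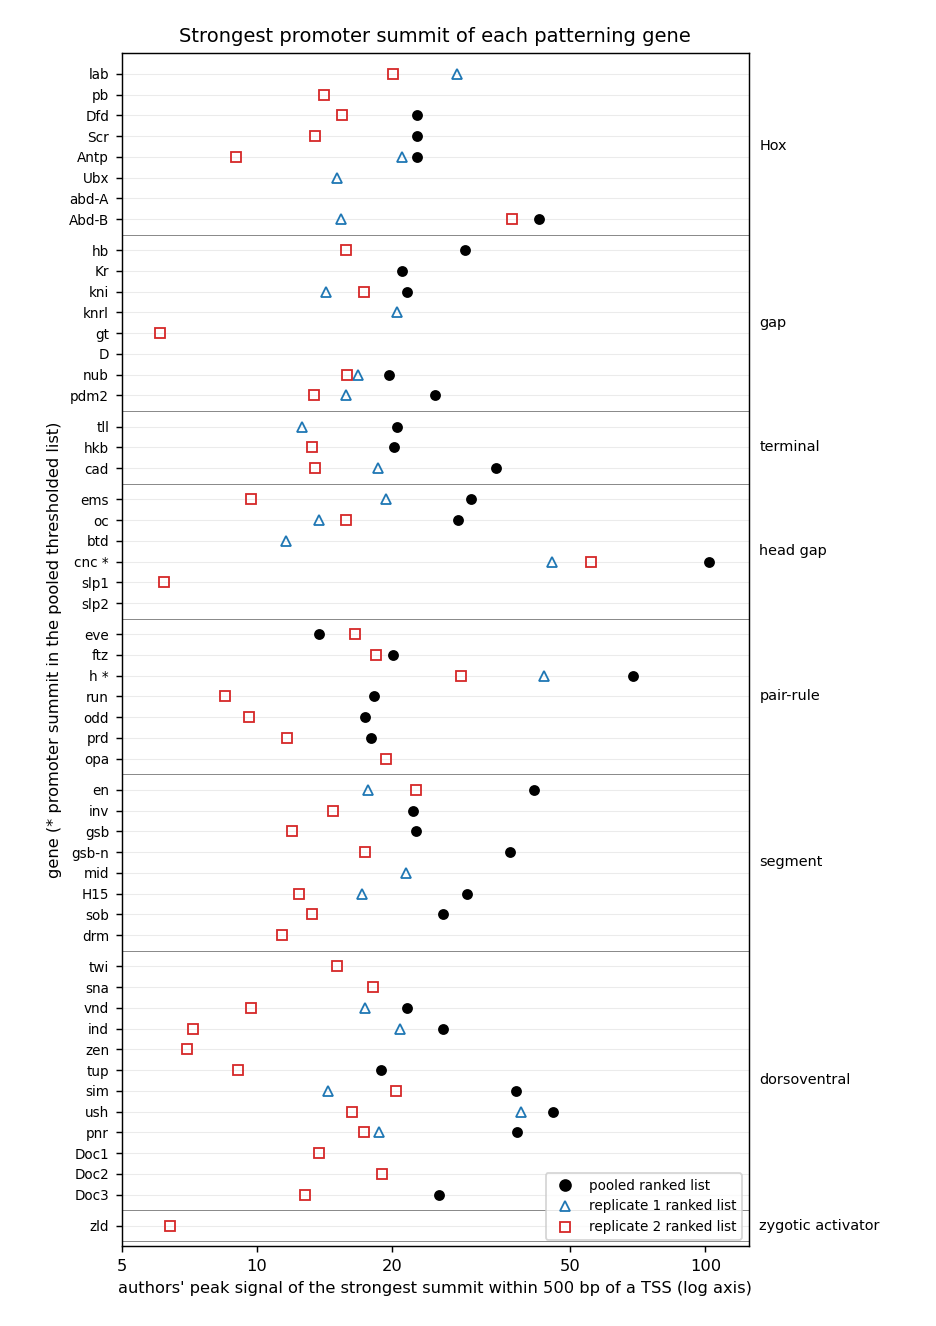
Authors' peak signal (x axis, log scale) of the strongest summit within 500 bp of a TSS for each of the 53 genes, grouped by role, in the pooled ranked list (filled circles) and the ranked lists of replicate 1 (triangles) and replicate 2 (squares); a missing symbol means no summit, and an asterisk a promoter summit in the pooled thresholded list. Only cnc (102.1) and h (69.1) exceed 50 in the pooled list.

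The ranked lists differ in length, so they were also cut to the same number of top peaks. With the 33381 strongest peaks of each replicate, replicate 1 had a promoter summit at 23 members and replicate 2 at 29 (54.7%, interval 40.4 to 68.4), where all genes stood at 49.7% and 41.0%. The 13 members shared by both made up 56.5% of those of replicate 1 and 44.8% of those of replicate 2, against 57.2% and 69.3% for all genes. By role, replicate 1 and replicate 2 had 1 and 4 of 7 pair-rule genes, 5 and 8 of 12 dorsoventral genes, 4 and 2 of 6 head gap genes, and 4 and 5 of 8 Hox genes. Of the 9 members with CAGGTAG in the promoter, h was held by both at that length, ftz, sna, Doc1 and Doc3 by replicate 2 only, and gt, slp1, odd and drm by neither. For all genes with CAGGTAG the shares are known for the full ranked lists only, 41.9% in replicate 1 and 65.5% in replicate 2. These role counts are small, and their difference between libraries was not tested.

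Few members were found among the strongest peaks of each list. Within the top 1000 peaks no list had a member promoter (0 of 53, interval 0 to 6.72), where all genes stood at 5.78% in the pooled list, 5.68% in replicate 1 and 5.93% in replicate 2, all inside that interval. Genes without a head-to-head neighbour stood at 3.02%, 3.11% and 2.82%. In the top 5000 there were 4, 4 and 3 members (intervals 2.09 to 18.2, 2.09 to 18.2 and 1.18 to 15.7), against 20.4%, 19.4% and 17.6% of all genes. Genes without a head-to-head neighbour stood at 12%, 12.1% and 10.1% there, inside those intervals. In the top 10000 there were 9 (17%), 7 (13.2%) and 8 (15.1%), against 28.1%, 28.3% and 23.6% of all genes. The members' intervals were 8.07 to 29.8, 5.48 to 25.3 and 6.75 to 27.6. They held the share of all genes in the pooled and replicate 2 lists but not in replicate 1. Without a head-to-head neighbour the shares were 19.2%, 19.8% and 15.7%, inside those intervals. In the top 20000 there were 13 (24.5%), 15 (28.3%) and 19 (35.8%), against 37.4%, 39.3% and 32.3%. Genes without a head-to-head neighbour stood at 28.6%, 30.6% and 24.7% there, inside the members' intervals of 13.8 to 38.3, 16.8 to 42.3 and 23.1 to 50.2.

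**Figure D4:**
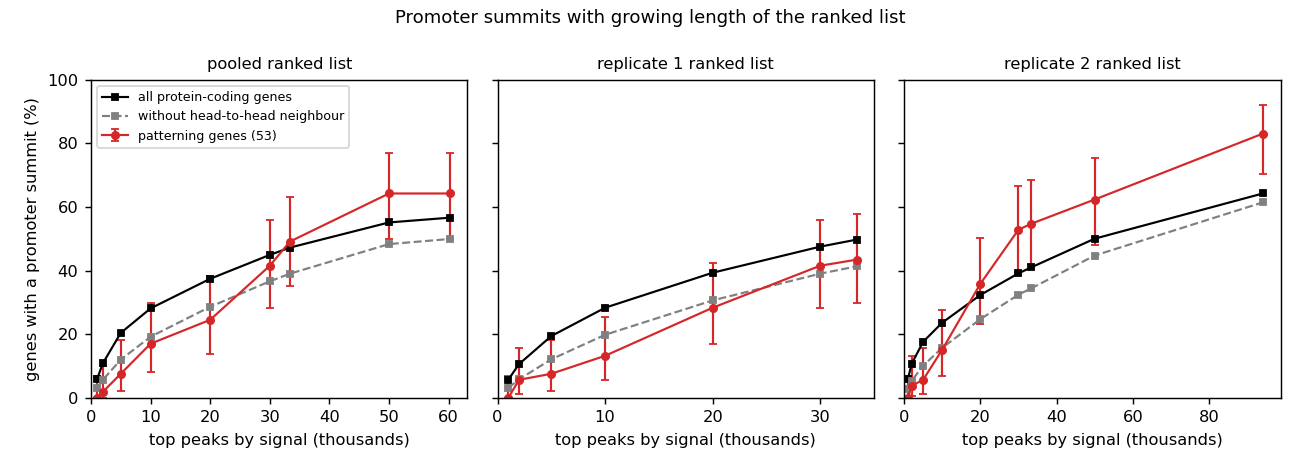
Share of genes with a promoter summit (y axis, %) among the top peaks by signal (x axis, number of peaks in units of 1000) of 3 ranked lists, for the 53 patterning genes (red, with exact 95% intervals), all protein-coding genes (black) and those without a head-to-head neighbour (grey). Patterning genes start at 0 in the top 1000 peaks and end at 64.2%, 43.4% and 83% of the pooled, replicate 1 and replicate 2 lists, where all genes end at 56.6%, 49.7% and 64.2%.

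Summit positions relative to the TSS are given as a description. In the pooled ranked list the strongest promoter summit of a member lay at a median of 46.5 bp downstream of its nearest TSS, and 13 of 34 (38.2%) were upstream. Over all genes the median was -77 bp and 61.8% were upstream, and over genes without a head-to-head neighbour -31 bp and 53.8%. In replicate 1 the members' median was 26 bp with 47.8% upstream, against -97.5 bp and 65.7% for all genes and -66 bp and 58.7% without a head-to-head neighbour. In replicate 2 it was 54.5 bp with 40.9% upstream, against -43 bp and 55.8%, and 16 bp and 48%.

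Most members shared GAGA-type sequence at the promoter. In the window from 250 bases before to 50 after the most upstream TSS, both strands, GAGAG was found at 41 of 53 members (77.4%), against 29.7% of all protein-coding genes and 33.2% of those without a head-to-head neighbour. It was found at 7 of 8 Hox genes, all 3 terminal and all 6 head gap genes. The other roles had it at 6 of 8 gap, 6 of 7 pair-rule, 6 of 8 segment and 7 of 12 dorsoventral genes, and zld lacked it. The printed runs of cnc and Abd-B lie at other TSSs than the most upstream one. Abd-B was therefore counted without GAGAG and CGGACG, and cnc without CANCNCTA, although their printed runs hold these matches. In the occupancy shares below, motifs were read at the most upstream TSS and summits at any TSS. CAGGTAG was found at 9 members (17.0%), gt, slp1, ftz, h, odd, drm, sna, Doc1 and Doc3, against 1.64% of all genes. TATAAA was found at 11 members (20.8%), 5 of them gap genes, against 45.8%, CANCNCTA at 2 (3.77%) against 15.5%, and ATCGAT at 5 (9.43%) against 23.3%. TCAGTC was found at 12 (22.6%) against 12.4%, TCAGTT at 16 (30.2%) against 26.1%, CAGCTG at 9 (17.0%) against 17.6%, and CGGACG at 3 (5.66%) against 5.64%. ATCGAT and CAGCTG read the same on both strands. Over all genes, promoters with CANCNCTA had a thresholded summit in 22.6% of cases and those without it in 11.5%, promoters with GAGAG in 13.7% and without it in 13%, and promoters with CAGGTAG in 10% and without it in 13.3%. Among genes without a head-to-head neighbour the shares with the motif were 9.52% for CANCNCTA, 9.12% for GAGAG and 4.73% for CAGGTAG. Of all such genes 6.97% were called, and shares without the motif are not given for that class. These are matches of letters in a window and not sites at which binding was measured.

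Other regulators of the same processes, 35 genes for maternal factors, cofactors, signal-regulated factors and later selectors, were read in the same way. A promoter summit in the pooled thresholded list was found at 8 of 35 (22.9%, interval 10.4 to 40.1), an interval that holds the 13.2% of all genes. They were gro, the Groucho corepressor (signal 245.1), Trl, which encodes GAGA factor (225.0), tin, the heart and visceral mesoderm gene (136.1), Dll, of the limbs (96.7), so, of the eye (79.6), fkh, of the gut and salivary gland (67.3), shn, of the Dpp pathway (57.6), and bcd (55.2), whose summit is also the one near zen. A head-to-head neighbour was present at 5 of the 35 and a summit within 10 kb at 21 (60.0%, all genes 49.0%). The thresholded list of replicate 1 held 4 of the 35 promoters (11.4%, all genes 7.23%) and that of replicate 2 held 6 (17.1%, all genes 10.6%). The difference between the 35 and the 53 was not tested.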

How the data were processed

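Taf1-eGFP was mapped by ChIP-seq in whole embryos (1 group, 2 biological replicates). Chromatin was sheared by sonication, per the labels. The authors deposited 8 peak lists on dm6: thresholded and IDR-ranked lists per replicate and for the pooled reads. Neither aligner nor peak caller is named (not given in the sources used here). The signal column is the authors' deposited value, on a scale that is not stated. Deposited score columns (an IDR score, and a q-value column with values below 0) were not used in the results, and the ranked lists also give the deposited −log10 of the global IDR. In the pooled ranked lists, 4 columns of per-sample signal were not used.

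Peaks off the arms were left out. Summits were the peak start plus the deposited offset. The pooled ranked list was the one that holds every peak of the larger thresholded list, all at a global IDR of 0.01 or less. Genes came from Ensembl release 115, sequence from the RefSeq release 6 assembly. Members and lists were chosen with earlier results of these data known, so shares are described beside all protein-coding genes with no test. Genes named in full were members with a summit at the promoter, in the body or within 10 kb, the 10 highest promoter signals, the Hox genes and the nearest genes of those summits; ems and other genes were named after their values were seen. Functions were tested on simulated summits. Alternatives were other lists, windows, flanks, list lengths and TSS rules. Scripts ran in Python 3.11.15 (pandas 2.3.3, numpy 2.4.6, matplotlib 3.10.9, and scipy 1.17.1 for the intervals).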

Additional observations from a re-analysis of the deposited data

How the results depend on the processing

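The count of members with a thresholded promoter summit was 2 in the conservative list (all genes 11.4%) and with a window of 1000 bp (15.4%). It was also 2 when a summit counted for its nearest TSS alone (9.66%) and with peak overlap (14.1%). It was 1 with a window of 250 bp (cnc lost, all genes 10.7%) and with the most upstream TSS only (cnc lost, 11.6%). With genes of at most 4 TSSs, an alternative chosen after seeing the data, it was 1 (12.9%). Across the single replicates it was 1 to 2 (all genes 7.23% and 10.6%). Members with a gene body summit were 2 to 4 in the single replicates (all genes 4.50% and 6.55%). Members with a summit within 10 kb were 7 to 12 in the single replicates (all genes 30.9% and 41.5%) and 9 with a flank of 5000 bp (all genes 35.6%). When a summit counted for its nearest TSS alone it was 8 of 53 members, slightly above the 14.2% of all genes. The order of the 10 kb result thus turned under that rule. In the pooled, replicate 1 and replicate 2 ranked lists the members with a promoter summit fell to 4, 4 and 3 in the top 5000 peaks, to 9, 7 and 8 in the top 10000, and to 13, 15 and 19 in the top 20000, since a shorter list holds fewer summits. The median distance to the nearest summit was 35430 bp to 59537 bp in the single replicates, which have fewer peaks. The median percentile of promoter signal was 30.4 to 44.4 in the single replicates. Adding back peaks that the thresholded list lacks, chosen after seeing the data, left the 3 counts at 2, 5 and 16, but moved summits per Mb of member bodies to 15.7 (all genes 17.5), and with promoter windows left out to 12.3 (10.5). In the single replicates these were 2.24 to 5.6 and 1.12 to 3.36 per Mb. No paired analysis was possible because there was only 1 group. Without read depth, weak and absent peaks at these promoters cannot be separated.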

Other observations

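The pooled ranked list held 87 peaks on the arms at a global IDR of 0.01 or less that the thresholded list used here lacks, and 8 of them lay in or within 10 kb of ush. The strongest had a signal of 1486.8, the second highest of the pooled ranked list, inside the annotated body of ush but 1405 bp from the TSS of cbt, a zinc finger gene within it. Others nearest to cbt had signals of 245.2 and 220.6, and 1 nearest to CG4297 had 282.0. None lay within 500 bp of a TSS of ush.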
